A study of Mus musculus with 12 samples.

Results

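Genes that mark tissues other than nerve were followed through 12 RNA libraries of mouse dorsal root ganglion, the knot of sensory nerve cells that sits beside each level of the spinal cord. The 43 genes were taken by name from a fixed list: 12 mark skeletal muscle, 7 fat, 10 liver, 5 skin or other stratified epithelium, 5 red blood cells and 4 granulocytes. All 43 were found among the 35534 genes of the tables, and all 43 were among the 18868 genes that passed the filter on low counts. Because the smallest group is 1 library, that filter let a gene in on 1 library at 0.133 CPM or more. For 5 members no other library reached that level: Apoa1 and Hpx passed on Q84 male 1, and Krt5, Krt14 and Krt15 on WT female 1. Krt13 reached it in 4 libraries, all labelled WT, and Serpina1c and Lep in 2 each, all labelled Q84. The libraries were labelled as wild-type (WT, 3 male and 3 female) or YAC Q84 (1 male and 5 female), all from mice 24 weeks old. YAC Q84 mice carry the human ATXN3 gene with an expanded CAG repeat on a yeast artificial chromosome and serve as a model of spinocerebellar ataxia type 3. The labels do not say whether the transgene was on one or both chromosomes, nor whether different libraries come from different animals. The p-values below therefore measure the spread among these libraries, which may be in part technical.

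A ganglion is dissected from a canal in the vertebra, beside muscle, fat, bone and marrow, and it holds blood in its vessels. Messenger RNAs of contractile proteins, secreted plasma proteins, keratins and haemoglobin are made by muscle fibres, hepatocytes, stratified epithelium and developing red cells, and are so abundant there that a trace of another tissue can be read in a sequenced library. Neutrophil granulocytes carry the S100a8 and S100a9 proteins in their cytosol, and their marrow precursors make the granule proteins Ngp and Camp. In bulk RNA, fewer cells of a type and less RNA per cell cannot be told apart.

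Depth lay between 66490481 and 86891563 estimated counts a library. Levels are given as CPM, counts scaled to a common library total, where 1 count was worth 0.0118 to 0.0152. The genotype labels were checked with 1 Atxn3 transcript, ENSMUST00000161011.8, which separated 10 of the 12 libraries by label: 62.7 to 79.4 TPM (levels per transcript length) in 5 libraries labelled Q84 and at most 0.285 TPM in 5 labelled WT. The library labelled WT female 2 held 34.0 TPM and the library labelled Q84 female 5 held 0.061 TPM, against their labels. Comparisons were therefore also made in the 10 libraries without these 2. The 10 sensory neuron genes were all present in every library, and in the 10 libraries their sums did not overlap: 3827 to 4577 CPM in WT and 2632 to 3128 CPM in Q84. Of the 10, 3 were called lower in Q84 there (Pou4f1, Nefl and Calca), against 4.93% of all genes, and none in 12 libraries. Their log2 fold changes in the 10 libraries ran from -0.97 for Calca to 0.06 for Isl1, with a median of -0.51. Calca was the most abundant of them and weighs most in the sum. The library labelled WT female 2 summed to 3785 CPM and the library labelled Q84 female 5 to 4642 CPM. The lower sum of these 10 genes thus moved with the marker differences given below for the 10 libraries, and its part in them was not tested. Together the 43 genes took 0.0245 to 0.410% of all counts.

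The summed level of each tissue's markers showed that single libraries, more than groups, stood apart. The library labelled Q84 male 1 was the highest of the 12 in 5 of the 6 tissues: muscle, fat, liver, red blood cell and granulocyte. In skin it was the lowest, and WT female 1 was the highest. Q84 male 1 lay 20.6 times above the 12-library median for muscle, 7.99 times for fat, 13.0 times for liver, 3.25 times for red blood cells and 2.7 times for granulocytes. WT female 1 lay 278 times above it for skin. Q84 female 1 ranked 2 for muscle and fat and lower elsewhere, whereas Q84 female 2 and Q84 female 3 ranked 2 and 3 for red blood cells and granulocytes and were among the 3 lowest for muscle.

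**Figure D1:**
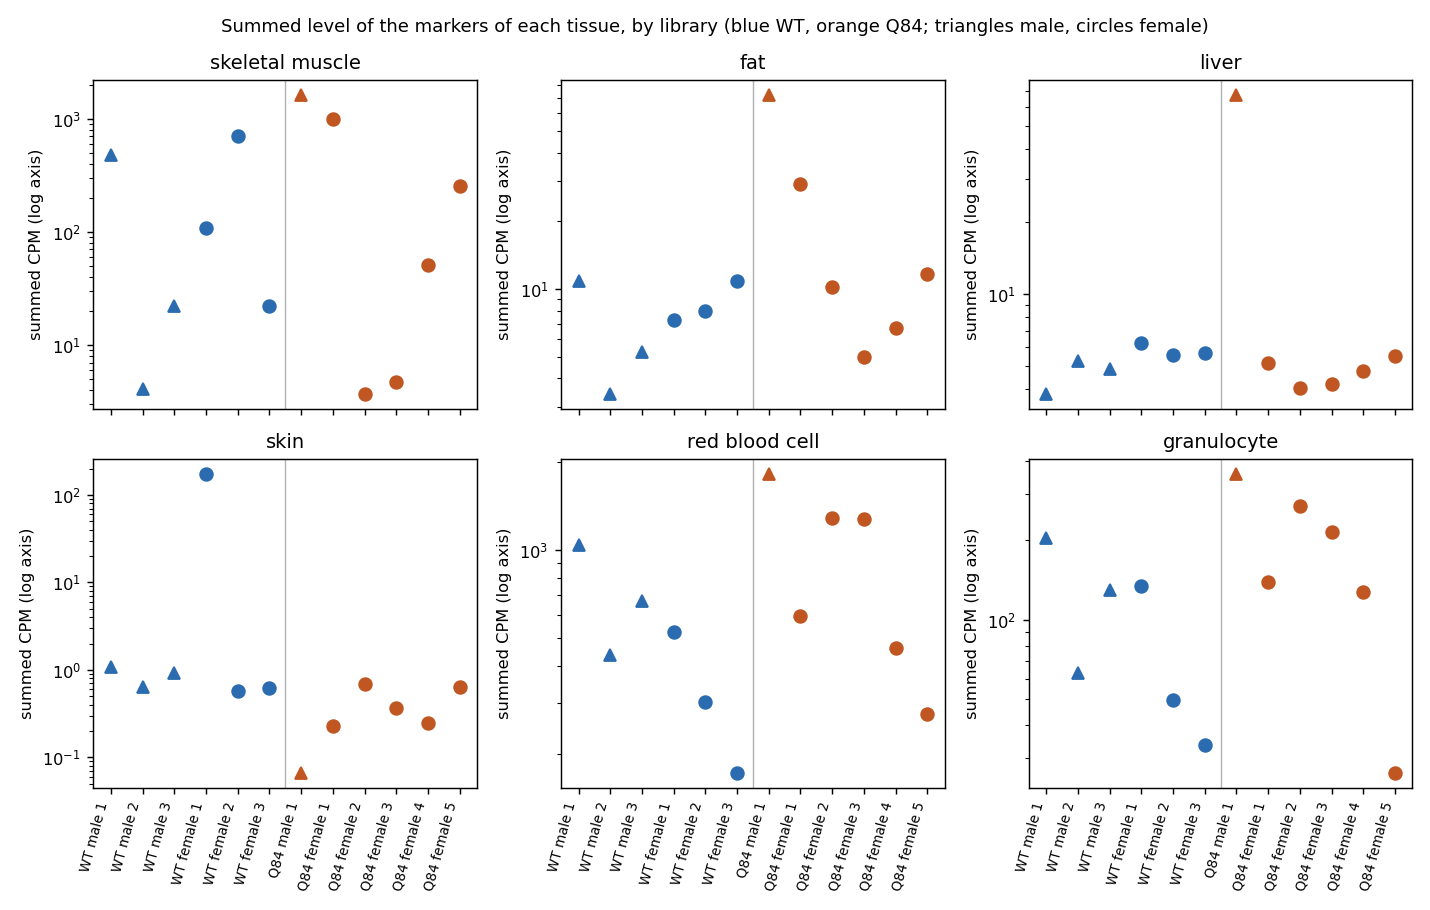
Summed CPM (log axis) of the members of each tissue in each of the 12 libraries, with WT in blue, Q84 in orange, males as triangles and females as circles. Q84 male 1 stands alone for liver at 67.7 CPM and WT female 1 stands alone for skin at 174 CPM, while muscle spreads over both groups from 3.73 to 1632 CPM.

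Skeletal muscle had the widest spread that was shared by both genotypes. The 12 members summed to 4.07 CPM at the lowest, 65.1 at the median and 703 at the highest in WT, where WT female 2 was highest. In Q84 the lowest was 3.73, the median 154 and the highest 1632 CPM. The 2 groups overlapped over nearly their whole range, and the lowest and highest libraries, 438-fold apart, both carried the Q84 label. Acta1, the skeletal actin of the thin filament, ran from 0.791 through a median of 9.68 to 98.2 CPM in WT and from 0.657 through 17.4 to 219 CPM in Q84. Tnnc2, the calcium sensor of fast fibres, ran from 0.248 through 8.69 to 104 CPM in WT and from 0.118 through 17.5 to 254 CPM in Q84. Myl1, a light chain of fast myosin, ran from 0.106 through 7.92 to 99.9 CPM in WT and from 0.158 through 21.0 to 253 CPM in Q84. All 12 members were highest in Q84 male 1, and their rank order over the libraries was nearly the same: the median Spearman rho over the 66 pairs of members was 0.98, with a lowest of 0.72.

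The muscle genes did not come in one fixed mixture. Among the 3 fast myosin heavy chains, compared per length in TPM, Myh4 of type IIb fibres made up 95.8% of the sum in WT female 2, 91.4% in Q84 female 1 and 95.3% in Q84 female 5. It made up 68.1% in WT male 1 and 80.3% in Q84 male 1, where Myh2 of the more oxidative type IIa fibres took 12.6% and 8.05%. In the same TPM scale Mb, the oxygen store myoglobin, stood at 53.6% of Acta1 in WT male 1 and at 46.7% in Q84 male 1. In WT female 2, Q84 female 1 and Q84 female 5 it stood at 6.76%, 6.11% and 5.04%. The muscle-rich libraries thus fell into a pair with much Myh2 and Mb and a trio with little, and each set held both labels. The pair was male and the trio female, but in WT female 1, the library ranked 6 for muscle, Mb also stood at 47.0% of Acta1. These sets were noticed in the data and not tested. Myh2 itself had 51.8% of its summed CPM in Q84 male 1, at 10.2 CPM, with WT male 1 second at 4.99 CPM.

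No muscle member was called for genotype, where 0.0053% of all genes were (edgeR quasi-likelihood test, adjusted p under 0.05). In the fit of 12 libraries the 12 genes had log2 fold changes from 0.61 to 1.31, Q84 against WT, with a median of 1.02 and adjusted p from 0.773 to 0.867 (edgeR). For Acta1 it was 0.93 ± 1.57 (SE, adjusted p = 0.846). In the 10 libraries the median was 2.50 and Acta1 stood at 2.39 ± 1.82 (adjusted p = 0.55). Without Q84 male 1 the median over the 12 was -0.10 and Acta1 stood at -0.16 ± 1.93. That fit holds no Q84 male, so with sex in the model its genotype difference is the one among females, and Acta1 had the same -0.16 in the 8 female libraries. With the WT males kept in the group mean, the log2 ratio of the muscle sums without Q84 male 1 was 0.24, against 1.14 with it. Of 18 other muscle genes, 17 were highest in Q84 male 1 and 0 passed in either fit. Ttn, the giant spring protein of the sarcomere, had a log2 fold change of 1.19 (adjusted p = 0.695).

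The promoters of Acta1 and Ckm, the muscle creatine kinase, are shown because the muscle genes moved together over the libraries. The 120 bases before each start are from RefSeq (build GRCm38.p6), with Acta1 at chr8:123894776-123894895 on the minus strand and Ckm at chr7:19410974-19411093 on the plus strand, 5′ to 3′ in the direction of the gene. Capitals mark 3 short motifs wherever they occur on either strand: the CCAAT box, the letters CACCC that globin promoters are known for, and the core of the TATA box, TATAA.
Acta1: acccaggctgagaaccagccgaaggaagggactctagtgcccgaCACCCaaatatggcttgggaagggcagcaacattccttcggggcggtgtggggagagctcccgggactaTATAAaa
Ckm: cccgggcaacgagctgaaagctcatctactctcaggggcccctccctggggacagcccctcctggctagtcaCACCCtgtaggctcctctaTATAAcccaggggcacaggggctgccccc
Both windows hold a TATAA and a CACCC and neither holds a CCAAT. Over 32851 promoter windows of this length in the table, 21.3% hold CCAAT, 31.7% CACCC and 11.8% TATAA. Of the 43 members 36 matched the table, and of these 14, 21 and 17 hold the respective motif.

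**Figure D2:**
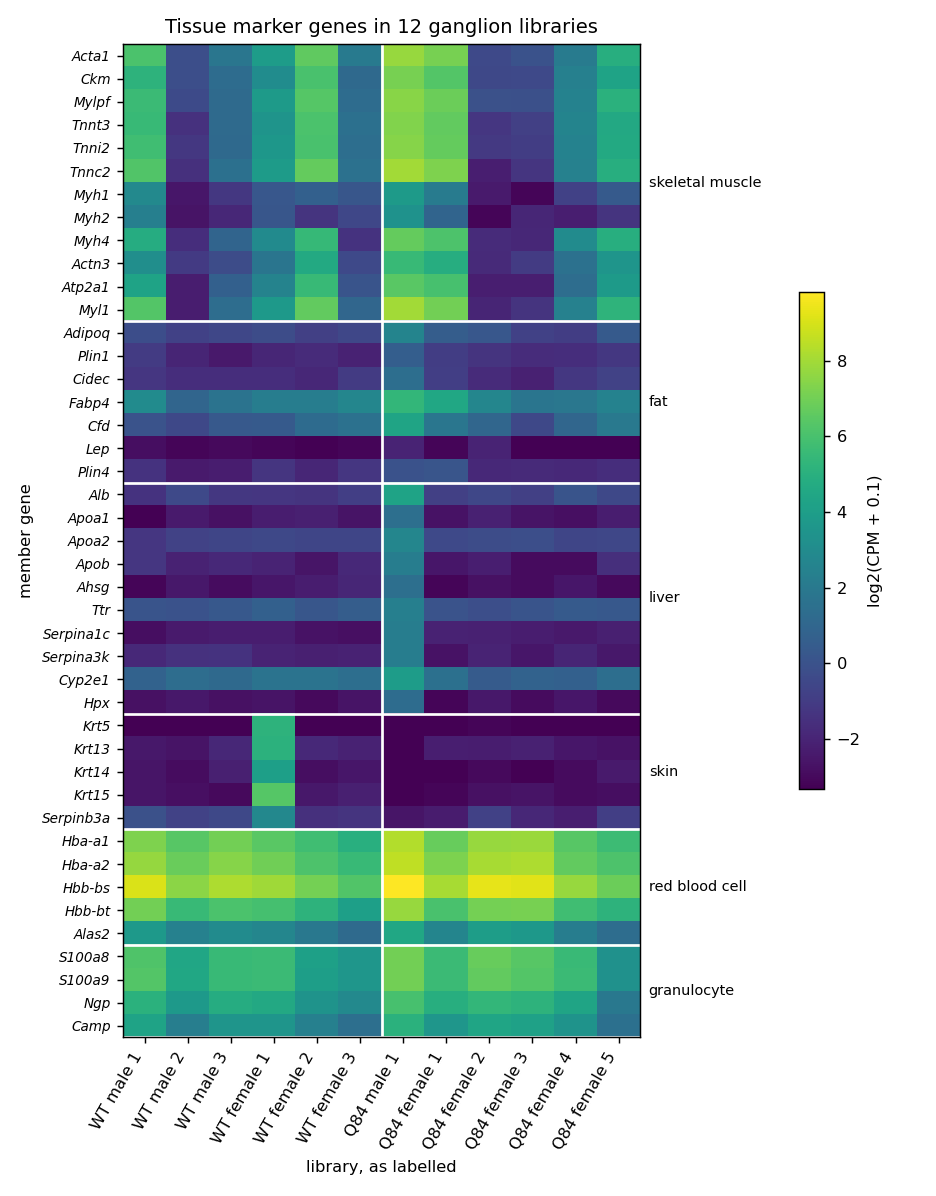
Level of each of the 43 members (rows, grouped by tissue) in each of the 12 libraries (columns), as log2(CPM + 0.1). The muscle block runs from dark to bright within both genotypes, the liver block is bright in Q84 male 1 and the skin block in WT female 1, and the blood blocks vary together.

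Fat markers were led by 2 libraries labelled Q84. The 7 members summed to 3.42 CPM at the lowest, 7.63 at the median and 10.8 at the highest in WT, and to 4.99, 10.9 and 72.5 CPM in Q84. Only Q84 male 1 and Q84 female 1, at 72.5 and 29.1 CPM, and Q84 female 5, at 11.7 CPM, lay above every WT library. Most of the sum was Fabp4, a fatty acid carrier that endothelium also makes, which had a WT median of 4.67 CPM and a Q84 median of 5.92 CPM and reached 41.6 CPM in Q84 male 1. Adipoq, the adipocyte hormone adiponectin, stood at 0.46, 0.596 and 0.747 CPM (lowest, median, highest) in WT and at 0.416, 1.14 and 5.95 CPM in Q84. Cfd, the complement factor adipsin, stood at 0.614, 1.18 and 2.91 CPM in WT and at 0.607, 2.67 and 19.9 CPM in Q84. Lep, which encodes leptin, was at 0 in 4 libraries and had at most 11 counts in any.

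All 7 fat members had positive fold changes and none passed in 12 or in 10 libraries. Their median log2 fold change was 1.49 in 12 libraries, with adjusted p from 0.141 to 0.403. Adipoq had 1.51 ± 0.46 (SE, adjusted p = 0.172 with edgeR), and it was called with DESeq2, as were 3.29% of all genes. Without Q84 male 1 the median over the 6 members still tested was 0.52, and Adipoq had 0.60 ± 0.40 (adjusted p = 0.613). The fat genes followed each other less closely than the muscle genes, with a median Spearman rho of 0.59 over 21 pairs. Of 12 other fat genes, 1 passed in the 10 libraries, where 1.52% of all genes were called higher: Retn, which encodes the adipocyte hormone resistin. It had 0.161 CPM on average in WT and 0.685 CPM in Q84, with 2.13 CPM in Q84 male 1, and a log2 fold change of 2.25 ± 0.59 (adjusted p = 0.046). The other Q84 libraries held 0.148 to 0.604 CPM, which overlapped the 0.0856 to 0.243 CPM of WT. Scd1, a desaturase and the most abundant gene of that list, averaged 672 CPM in WT against 568 CPM in Q84.

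Liver transcripts stood out in a single library. The 10 members summed to between 3.84 and 6.24 CPM in WT, with a median of 5.42 CPM. In Q84 the lowest was 4.04, the median 4.96 and the highest 67.7 CPM, and without Q84 male 1 the highest was 5.50 CPM. Alb, the plasma protein albumin, stood at 0.275, 0.329 and 0.637 CPM (lowest, median, highest) in WT and at 0.459, 0.611 and 19.5 CPM in Q84. All 10 members were highest in Q84 male 1, and for 7 of them that library held over 50% of the sum over 12 libraries: Alb, Apoa1, Apob, Ahsg, Serpina1c, Serpina3k and Hpx. These encode plasma proteins, among them apolipoproteins, protease inhibitors and the haem carrier hemopexin. Serpina1c, an alpha-1-antitrypsin, had 4.72 CPM there and at most 0.142 CPM in the other 11, and Hpx had 2.38 CPM there and at most 0.0826 CPM elsewhere.

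Among the other 11 libraries the rank order of the liver genes was not shared. The median Spearman rho over the 45 pairs was -0.01 in these 11, and 0.22 with Q84 male 1 included. Cyp2e1, an ethanol-oxidising cytochrome, and Ttr, the thyroid hormone carrier transthyretin, were present at 1.29 to 3.15 CPM and at 0.775 to 1.51 CPM in these 11 libraries, far above Hpx. Of 16 other liver genes, all 16 were highest in Q84 male 1. In the 10 libraries 2 of the 16 passed, Serpina1a and Itih4, both higher in Q84, as were 1.52% of all genes. Serpina1a stood at 2.36 CPM in Q84 male 1 and at most 0.276 CPM elsewhere. Itih4, an inhibitor heavy chain of plasma, had 0.638 CPM in Q84 male 1 and 0.0992 to 0.188 CPM in the other Q84 libraries. The highest of these was Q84 female 5, which went against its label. WT libraries held 0.0236 to 0.0734 CPM, which is few counts a library and below the filter level of 0.133 CPM. Itih4 thus entered the test on libraries labelled Q84 alone, and its call is no evidence on genotype.

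The 10 liver members had a median log2 fold change of 1.58 in 12 libraries, and none passed (adjusted p from 0.141 to 0.706). The largest was 2.98 ± 0.82 for Serpina1c (SE, adjusted p = 0.141 with edgeR), which DESeq2 called, as it did 3.29% of all genes. Serpina1c reached the filter level only in Q84 male 1 and Q84 female 1, so that call is no evidence on genotype. Without Q84 male 1, in the comparison among females, the median over the 6 members still tested was -0.40. The log2 ratio of the liver sums went from 1.54 to -0.15 without that library, so there the sign turned with it. Alb kept a positive value of 0.79 ± 0.36 (adjusted p = 0.49), and Cyp2e1 went to -0.62 ± 0.26 (adjusted p = 0.465). The interaction of genotype and sex was called for 8 genes, 0.0424% of those tested, and 7 of these were liver members: Apoa2, Ahsg, Cyp2e1, Alb, Serpina3k, Ttr and Serpina1c. The Q84 males are 1 library, Q84 male 1, which is the highest for all 10 liver members. The term therefore restates the height of that library and shows no difference between the sexes.

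**Figure D3:**
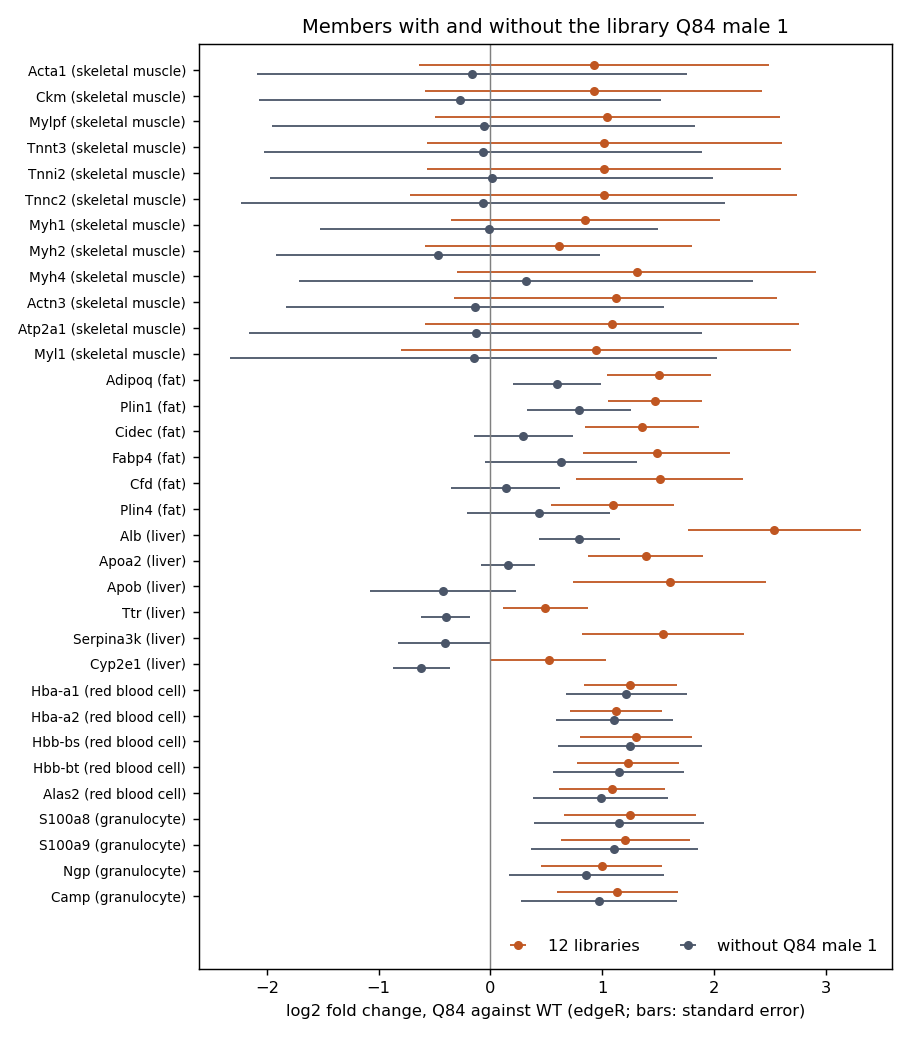
Log2 fold change of Q84 against WT with its standard error (edgeR) for the 33 members outside skin that were tested in both fits, in 12 libraries (orange) and without Q84 male 1 (grey, in effect the comparison among females). Most muscle genes and 4 of the 6 liver genes lie near or below 0 without that library, and the red blood cell and granulocyte genes stay near 1.

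Skin keratins were present in 1 library labelled WT. The 5 members summed to 174 CPM in WT female 1 and to between 0.0664 and 1.07 CPM in the other 11. Krt15, a keratin of basal cells, stood at 80.4 CPM there and at most 0.122 CPM elsewhere. Krt5, the basal keratin that pairs with Krt14, had 2941 counts there, was at 0 in 10 of the other 11 libraries and had 1 count in the last, so it was at least 785-fold higher than the 3 counts that a library at 0 allows. Krt13, the keratin of moist epithelia such as oral and oesophageal lining, stood at 34.8 CPM, Krt14 at 16.7 CPM and the protease inhibitor Serpinb3a at 6.85 CPM. Serpinb3a was the one member seen throughout, at 0.0664 to 0.865 CPM in the other 11.

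All 14 other skin genes were highest in WT female 1 as well. They included a keratin of moist epithelium, Krt4 at 15 CPM, and keratins of cornified or stressed epidermis, Krt1 at 19.8 CPM and Krt6a at 29.4 CPM. The lectin Lgals7 stood at 25.5 CPM. In the 10 libraries 2 of the 14 passed, both lower in Q84: Krt1 (edgeR adjusted p = 0.042) and Dsg3 (0.0182). Over all genes 4.93% were called lower. Dsg3 had 7.32 CPM in WT female 1 and at most 0.115 CPM elsewhere, so its call describes that library and is no evidence on genotype. Ltf, which the granulocyte list holds but which glandular and surface epithelia also make, peaked in that library too at 41.3 CPM, with Q84 male 1 next at 26.7 CPM. Of 9 genes of meninges and choroid plexus 6 were highest there, Ptgds at 161 CPM among them. The sum of these 9 was highest in WT male 1 at 514 CPM, where Ogn, their most abundant gene, stood at 428 CPM. Of 7 bone and cartilage genes 1 was highest in WT female 1. The part of these lists in the result was not tested.

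WT female 1 entered the comparison as WT, and the skin genes were the members with the largest negative fold changes. In 12 libraries none of the 5 passed (adjusted p from 0.108 to 0.194). In the 10 libraries, where 4.93% of all genes were called lower in Q84, 4 of the 5 were: Krt13 (adjusted p = 0.0252), Krt14 (0.0176), Krt15 (0.0245) and Serpinb3a (0.0254). For Krt14 and Krt15, which entered the test on WT female 1 alone, the call describes that library and is no evidence on genotype. Krt13 reached the filter level in 4 libraries, all labelled WT, with 34.8 CPM in WT female 1 and at most 0.189 CPM elsewhere. Its call is no evidence on genotype either. With WT female 1 left out of those 10, Krt5, Krt14 and Krt15 fell below the filter and could not be called, and Krt13 and Serpinb3a were tested and not called. In that fit 5 members were called, all higher in Q84, against 5.19% of all genes: Apoa1, Hpx, Ngp, Plin1 and Serpina1c. Of these, Apoa1 and Hpx had passed the filter on Q84 male 1 alone, and Serpina1c on libraries labelled Q84 alone. No member was called when Q84 male 1, or any of Q84 female 1, 3 and 4, was left out (35 members were tested without Q84 male 1). Over all genes those 4 fits called 680 of 17868, 946 of 18747, 922 of 18709 and 1025 of 18699, in that order. Only 1 member was called without WT male 3 (Krt14, beside 970 of 18632 genes) or without Q84 female 2 (Serpinb3a, beside 871 of 18610 genes). The groups of 10 libraries did not overlap for Krt14, with WT at 0.0354 CPM or more and Q84 at 0.0287 CPM or less. That is under 3 counts in each library of Q84. Over all genes in these 10 libraries, 5.62% did not overlap with Q84 lower. In 12 libraries the groups overlapped for Krt14, with Q84 female 5 at 0.0939 CPM. As Krt14 entered on WT female 1 alone, its separation is no evidence on genotype either.

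Red blood cell transcripts were the most abundant of the members and had positive fold changes with and without the library Q84 male 1. The 5 members summed to 173 CPM at the lowest, 478 at the median and 1036 at the highest in WT, and to 274, 935 and 1817 CPM in Q84. The groups overlapped widely: 4 of 6 Q84 libraries lay above the WT median. The means were 523 ± 305 CPM (SD, n = 6) in WT and 950 ± 598 CPM (SD, n = 6) in Q84, and among females 332 ± 177 CPM (SD, n = 3) and 777 ± 470 CPM (SD, n = 5). Hbb-bs, an adult beta globin, stood at 76.2, 215 and 530 CPM in WT and at 115, 434 and 896 CPM in Q84. Hba-a1 and Hba-a2, the 2 alpha globins, reached 309 and 371 CPM in Q84 male 1. Alas2, the first enzyme of haem synthesis in red cell precursors, ran from 2.19 to 22.3 CPM. All 5 members were highest in Q84 male 1, and their order over the libraries was nearly the same, with a median Spearman rho of 0.99 over 10 pairs.

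The balance within the globins was narrow beside the 10.5-fold range of the sum. In TPM, Hbb-bs made up 79.3 to 85.0% of beta globin and Hba-a1 made up 32.6 to 36.7% of alpha globin, and the ratio of beta to alpha lay between 1.08 and 1.65. The Hba-a1 and Hba-a2 transcripts are 99.8% identical over 538 aligned bases, and Hbb-bs and Hbb-bt are 93.6% identical over 609, so the split within each pair is uncertain; the summed level does not depend on it. The promoters of the 4 genes are shown because the genes lie on different chromosomes and followed each other over the 12 libraries. The windows, in the same format and with the same motifs in capitals, lie with Hba-a1 at chr11:32283552-32283671 on the plus strand, Hba-a2 at chr11:32296372-32296491 on the plus strand, Hbb-bs at chr7:103827929-103828048 on the minus strand and Hbb-bt at chr7:103813924-103814043 on the minus strand.
Hba-a1: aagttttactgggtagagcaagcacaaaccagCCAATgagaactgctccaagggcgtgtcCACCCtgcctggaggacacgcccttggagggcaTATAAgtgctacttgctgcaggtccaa
Hba-a2: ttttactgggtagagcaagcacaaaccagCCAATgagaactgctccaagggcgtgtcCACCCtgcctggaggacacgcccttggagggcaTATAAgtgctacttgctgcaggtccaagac
Hbb-bs: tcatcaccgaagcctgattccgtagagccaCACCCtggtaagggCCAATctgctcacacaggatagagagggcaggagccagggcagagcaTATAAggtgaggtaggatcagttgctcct
Hbb-bt: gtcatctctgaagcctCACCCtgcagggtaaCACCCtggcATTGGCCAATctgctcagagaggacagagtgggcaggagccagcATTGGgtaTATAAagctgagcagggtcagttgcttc
All 4 hold each of the 3 motifs. The alpha globin windows are 100% identical over 117 aligned bases and the beta globin windows 76.7% identical over 120.

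The 5 red blood cell genes had log2 fold changes from 1.09 to 1.30 in 12 libraries, and none was called (edgeR adjusted p from 0.218 to 0.327). All 5 had an unadjusted p under 0.05, against 14.3% of all genes. As the 5 had nearly the same order over the libraries, they are not 5 separate results. Hbb-bs had 1.30 ± 0.50 (SE, adjusted p = 0.275 with edgeR). In the 10 libraries it had 1.40 ± 0.52 (adjusted p = 0.179), and without Q84 male 1, in the comparison among females, it had 1.25 ± 0.65 (adjusted p = 0.535). The log2 ratio of the summed group means was 0.86 in 12 libraries and 0.57 without Q84 male 1, with the WT males kept. Of 11 other red cell genes, 10 were highest in Q84 male 1 and 0 passed. Their most abundant, Fech of haem synthesis, which other cells also use, had a log2 fold change of 0.01. The list of dividing marrow cells summed to 5.49 to 15.5 CPM in WT and 7.77 to 20.6 CPM in Q84, highest in Q84 male 1, with 0 of 5 called. The bone and cartilage list summed to 19.9 to 36.6 CPM in WT and 19.8 to 29.8 CPM in Q84. Of its 7 genes, 1 was called lower in Q84 in the 10 libraries, against 4.93% of all genes. It was Ibsp, with a log2 fold change of -0.73 ± 0.17 (SE, edgeR adjusted p = 0.0225). The part of marrow in the globin levels was not tested.

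Granulocyte transcripts followed the globins over the libraries. The 4 members summed to 33.6, 96.7 and 204 CPM (lowest, median, highest) in WT and to 26.4, 178 and 358 CPM in Q84, and 5 of 6 Q84 libraries lay above the WT median. The exception was the library labelled Q84 female 5. S100a8, of the cytosolic calcium-binding pair, stood at 11.9, 33.7 and 73.0 CPM in WT and at 10.1, 66.8 and 130 CPM in Q84. S100a9, its partner, stood at 12, 34.0 and 77.1 CPM in WT and at 9.85, 63.2 and 131 CPM in Q84. Ngp, a protein of the secondary granules that are filled in marrow, stood at 7.15, 19.1 and 33.8 CPM in WT and at 3.70, 32.9 and 62.5 CPM in Q84. The log2 fold changes of the 4 were 1.00 to 1.25, none called (adjusted p from 0.368 to 0.443), and without Q84 male 1, among females, their median was 1.04. The log2 ratio of the summed group means was 0.89 in 12 libraries and 0.61 without that library. Of 12 other granulocyte genes, 8 were highest in Q84 male 1 and 0 passed. Mpo, of the primary granules of early precursors, was at 7.89 CPM there and at most 2.07 CPM elsewhere.

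Whether tissues rose together was tested with 1 gene per tissue over libraries, as log2(CPM + 0.5). Red cells and granulocytes did: Hbb-bs and S100a8 had a Pearson r of 0.96 and a Spearman rho of 0.94 over 12 libraries (two-sided permutation p = 1e-05 for both, the smallest that 100000 resamples can give, adjusted p = 0.0001 over 10 pairs). Within the 6 WT libraries r was 0.96 (exact permutation p = 0.00417), within the 6 Q84 libraries 0.95 (exact permutation p = 0.00139), and without the 2 libraries farthest from the median of Hbb-bs 0.94. Acta1 did not follow Hbb-bs (r = 0.05, permutation p = 0.883, rho = -0.01, p = 0.991) or S100a8 (r = 0.02, permutation p = 0.96, rho = 0.03, p = 0.939). For Adipoq and Alb, Q84 male 1 stood apart, so r is given over the other 11. Adipoq against Acta1 had r = 0.38 (permutation p = 0.246; rho = 0.25, p = 0.45), and Alb against Acta1 had r = -0.43 (permutation p = 0.191; rho = -0.40, p = 0.228), and each had an adjusted p of 0.82. The remaining 5 pairs had r from -0.11 to 0.12 (adjusted permutation p = 0.96 for each) and rho from -0.15 to 0.27. The labels give no batch within which to repeat this. Krt5, at 0 in 10 libraries, was not correlated.

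**Figure D4:**
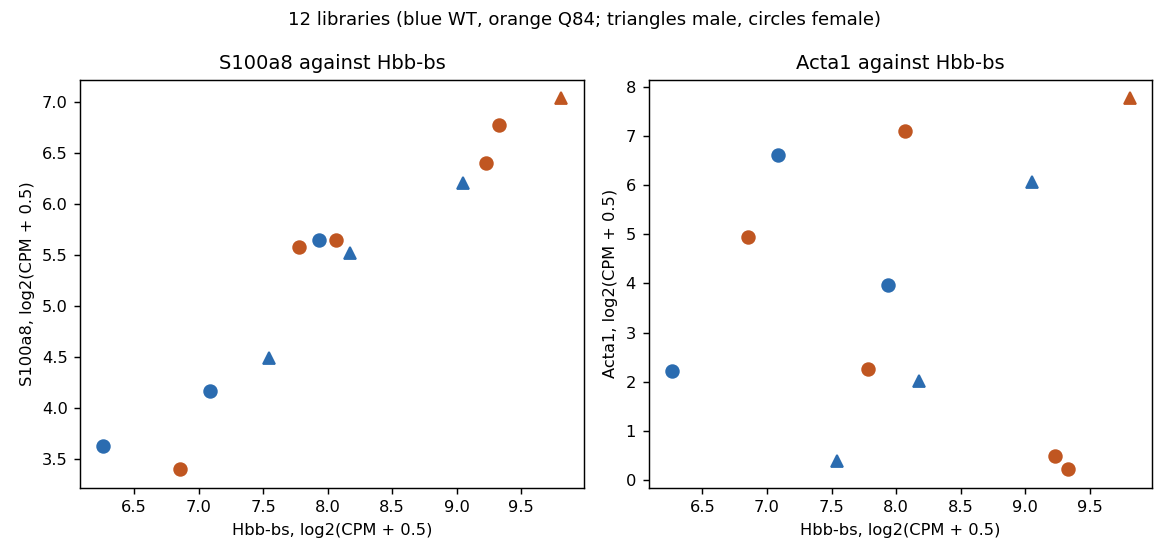
Level of S100a8 (left) and Acta1 (right) against Hbb-bs in the 12 libraries, as log2(CPM + 0.5), with WT in blue, Q84 in orange, males as triangles and females as circles. The left points follow 1 line in both genotypes (r = 0.96), and the right points do not (r = 0.05).

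Read as one list, the 43 members leaned to higher levels in Q84 without any call. In 12 libraries 38 of 43 had a positive log2 fold change, with a median of 1.13 against 0.01 over all genes, and 0 of 43 passed (edgeR, against 0.0053% of all genes called, which was 1 gene, Chrna7). An unadjusted p under 0.05 was found for 18 of 43 and for 14.3% of all genes. DESeq2 called 2 of 43, Adipoq and Serpina1c, against 3.29% of all genes, and limma-voom called 0. In the 10 libraries 4 of 43 passed, the skin genes given above, against 6.45% of all genes (DESeq2 called 9 of 43, against 10.3%), and 38 of 43 were again positive. Without Q84 male 1, 8 members fell below the filter. Of the 35 tested, 0 passed, as did 0% of all genes, 5 had an unadjusted p under 0.05, against 10.1% of all genes, 19 were positive and the median was 0.14. Where all 43 are given, these counts include the 5 that passed the filter on 1 library. They also include Krt13, Serpina1c and Lep, which passed it on libraries of 1 label. The counts are a description.

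The genotype comparison was then fitted again with each tissue's summed level (log2) beside sex and genotype. In the 10 libraries 1207 genes were called without a tissue term, 285 higher (1.52%) and 922 lower (4.93%) in Q84. With the muscle term 1178 were called (6.29%), of which 1053 were among the 1207. With the liver term 942 were called (5.03%, 818 shared), with fat 747 (3.99%, 680 shared) and with skin 567 (3.03%, 450 shared). With the granulocyte term 444 were called (2.37%, 335 shared) and with the red blood cell term 350 (1.87%, 292 shared). The genes called higher went from 285 to 38 with the red blood cell term, and those called lower from 922 to 312. The median log2 fold change of the 1207 genes went from -0.67 to -0.58 with the red blood cell term, -0.57 with the granulocyte term and -0.65 with the muscle term. Each such term also costs 1 degree of freedom. In these 10 libraries the red blood cell and granulocyte sums were 1.92-fold and 1.97-fold higher in Q84 on average. The muscle sum was 4.26-fold higher, fat 3.29-fold and liver 3.31-fold, and the Q84 mean of the skin sum was 0.00894 times the WT mean. For none of the 6 tissues can its part and the part of genotype be told apart in these fits. In 12 libraries, where 1 gene was called, the red blood cell term gave 20 (0.106%) and the granulocyte term 35 (0.185%).

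**Figure D5:**
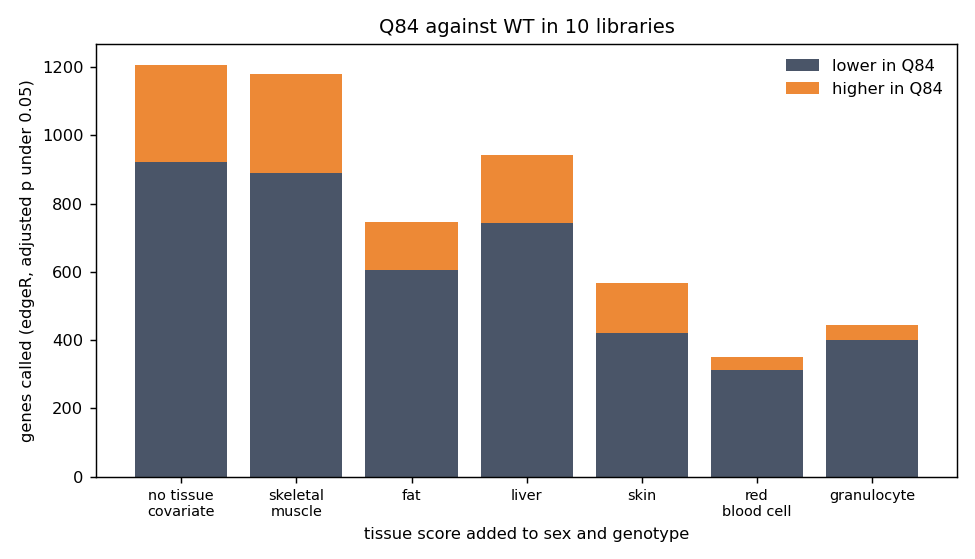
Number of genes called for Q84 against WT in 10 libraries (edgeR, adjusted p under 0.05), without and with the summed level of 1 tissue as a further term, split into lower (grey) and higher (orange) in Q84. The muscle term leaves 1178 of 1207 calls in number and the red blood cell term leaves 350.

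The same fits show which genes followed a tissue's level at a fixed sex and genotype. In 12 libraries 127 genes outside the members followed the muscle sum (0.675%), all rising with it, and 13 of 18 other muscle genes were among them. The skin sum was followed by 118 genes (0.627%), 10 of 14 other skin genes among them. That sum was 174 CPM in WT female 1 and 0.0664 to 1.07 CPM elsewhere. To follow the skin sum, here and below, therefore rests largely on that library. The granulocyte sum was followed by 183 genes (0.972%), 101 rising and 82 falling with it, with 11 of 12 other granulocyte genes on the rising side. The red blood cell sum was followed by 34 genes (0.181%), 2 of 11 other red cell genes among them. Of the 1203 genes outside the members that were called for genotype in the 10 libraries, 13 followed the skin sum and 0 followed any of the 5 other sums (edgeR), where at an unadjusted p under 0.05 the counts ran from 75 for muscle to 115 for liver. Over all genes outside the members in those libraries, 0.707% followed the muscle sum, 0.53% skin, 0.0964% granulocyte, 0.0428% red blood cell and 0.00536% each fat and liver.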

How the data were processed

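Each of the 12 tables the authors deposited lists 116313 transcripts with estimated counts, effective lengths and TPM, per the file headers. The submitters' processing notes name STAR 2.7.10b, kallisto 0.46.2 and GRCm39 but not what each was used for. RNA was poly(A) selected, per the labels' protocols. No source used here gives the annotation release.

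Transcripts were assigned to genes through GENCODE M21 (98.3% matched; unmatched ones held 0.756 to 0.807% of counts). Estimated counts were summed per gene, rounded, filtered with filterByExpr (smallest group 1 library, which could admit a gene on its own), scaled with TMM and tested with edgeR 4.0.16 (quasi-likelihood, robust; sex and genotype; Benjamini-Hochberg over all genes, 0.05). A tissue score is the summed CPM of its members and has no test. DESeq2 1.42.0, limma-voom (limma 3.58.1), other scalings and filters, a replicate block, tissue terms and left-out libraries were alternatives. The 10-library fit and the fit without Q84 male 1 and WT female 1 were chosen after seeing the data. Replicates of a group differed beyond sampling noise (chi-square per degree of freedom of 28.9 or more).

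The members and lists were chosen with earlier results of these data known. Named members are the 3 of highest mean CPM per tissue, those that passed, and those with over 50% of their CPM in 1 library. From other lists, some of the 3 of highest mean are named, and all genes of the 6 tissues that passed. Other genes, among them Mb, Mpo, Krt4, Krt6a and Chrna7, were picked after their values were seen. The promoter windows are from RefSeq (GRCm38.p6). On simulated data with the means of these libraries, the 12-library fit recovered 64% of genes changed 2-fold and 96% changed 8-fold, with 5 false among 137 calls (18868 genes). The simulated data held no library that stood apart and none that went against its label. These rates therefore need not hold for the real libraries.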

Additional observations from a re-analysis of the deposited data

Results flagged for a closer look

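Of 72 groups of members or tissue sums with 4 to 10 libraries, 25 had a library far from the others of its group. Chance gives about 1 in 20 such groups, and the members of a tissue are not independent.

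In the group labelled WT, WT female 1 stood apart in the skin sum at 174 CPM, and in Krt15 at 80.4, Krt5 at 35.8, Krt13 at 34.8, Krt14 at 16.7 and Serpinb3a at 6.85 CPM. WT male 1 stood apart in Myh2 at 4.99 CPM.

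In the group labelled Q84, Q84 male 1 stood apart in the fat sum at 72.5 CPM and the liver sum at 67.7 CPM. It also stood apart in Myh2 at 10.2, Cfd at 19.9 and Adipoq at 5.95 CPM. Among liver genes it stood apart in Alb at 19.5, Cyp2e1 at 15.1, Ttr at 4.93, Serpina1c at 4.72, Serpina3k at 4.70, Apob at 4.60, Apoa1 at 2.7, Ahsg at 2.68 and Hpx at 2.38 CPM. Krt5 at 0.0131 CPM in Q84 female 2 is 1 count, and Krt14 reached 0.0939 CPM in Q84 female 5. Among the 5 Q84 females, Q84 female 1 stood apart in the muscle sum at 998 CPM and the fat sum at 29.1 CPM.

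The interaction term of genotype and sex passed for 7 liver genes (edgeR). The Q84 males are the 1 library that already stands apart in these genes, so the term restates its height and shows no difference between the sexes. On the log2 scale it was 7.40 for Ahsg, 5.15 for Serpina1c, 4.76 for Alb, 4.66 for Serpina3k, 3.62 for Apoa2, 3.47 for Cyp2e1 and 2.72 for Ttr.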

How the results depend on the processing

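Over all alternatives but the left-out libraries, the log2 fold changes of 22 named members kept their direction and side of the threshold in 339 of 386 fits, were newly called in 2 (Adipoq 1.49 and Serpina1c 2.56 with DESeq2) and turned in 45. With a fat term they turned for Tnnc2 (-3.46), Myl1 (-3.30), Acta1 (-3.24), Myh2 (-2.43), Ahsg (-0.74), Cyp2e1 (-0.48), Apob (-0.44), Ttr (-0.13) and Fabp4 (-0.11). With a liver term they turned for Ahsg (-0.96), Cyp2e1 (-0.41), Myh2 (-0.26), Ttr (-0.20), Apob (-0.081), Acta1 (-0.039), Myl1 (-0.030) and Serpina3k (-0.011). With a muscle term they turned for Myh2 (-0.54), Tnnc2 (-0.37), Acta1 (-0.18) and Myl1 (-0.16). With a red blood cell term they turned for Ngp (-0.41), S100a8 (-0.26), S100a9 (-0.23) and Hbb-bs (-0.067), and with a granulocyte term for Ngp (-0.25). A term made of a tissue's own genes takes up their difference by construction. In the female libraries alone, which is also what the fit without Q84 male 1 compares, they turned for Cyp2e1 (-0.62), Myh2 (-0.46), Apob (-0.42), Serpina3k (-0.41), Ttr (-0.40), Acta1 (-0.16), Myl1 (-0.14) and Tnnc2 (-0.061). Without Q84 male 1 and WT female 1 they turned for Cyp2e1 (-0.56), Myl1 (-0.55), Acta1 (-0.54), Tnnc2 (-0.46), Serpina3k (-0.33), Apob (-0.33), Ttr (-0.27) and Cfd (-0.14). With the replicate block they turned for Tnnc2 (-0.68), Myl1 (-0.54) and Acta1 (-0.53).

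Leaving out 1 library turned Tnnc2 (range -0.23 to 2.54), Myl1 (-0.15 to 2.55), Acta1 (-0.21 to 2.34) and Myh2 (-0.47 to 1.15) without Q84 male 1 or Q84 female 1, and Cyp2e1 (-0.62 to 0.72), Ttr (-0.40 to 0.71), Serpina3k (-0.41 to 2.03) and Apob (-0.43 to 2.14) without Q84 male 1.

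The 1 gene called in 12 libraries became 15 with total-count scaling, 15 with no filter, 620 with DESeq2, 638 with the replicate block, 193 with genotype alone and 1207 in 10 libraries. It became 0 in females (1826 at an unadjusted p under 0.05), 0 with a fat term (2188) and 0 with a liver term (2379), 2 with a skin term (Cyp2a5 and Ugt2b34), 20 with a red blood cell term and 35 with a granulocyte term. Leaving out 1 library gave 0 to 1082, with 1082 without Q84 female 5, 51 without WT female 2 and 42 without WT male 1. The 1207 became 747 (fat), 567 (skin), 350 (red blood cell), 444 (granulocyte) and 1931 (DESeq2), and 680 (without Q84 male 1) to 1978 (without WT male 1) when 1 library was left out.

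The 0 members called in 12 libraries became 2 with DESeq2, 1 with a red blood cell term (Krt5), 2 with a granulocyte term (Krt5 and Krt15) and 4 in 10 libraries, and stayed at 0 without any single library. Over all genes, 3.29% were called with DESeq2, 0.106% with the red blood cell term, 0.185% with the granulocyte term and 6.45% in 10 libraries. Krt5 and Krt15 had passed the filter on WT female 1 alone. The 4 members became 2 with a muscle term (Krt14 and Serpinb3a) and 1 each with a fat and a liver term (Krt14). They became 8 with a skin term, all higher (Serpina1c and 7 blood genes), and 9 with DESeq2. Without 1 library they ranged from 0 to 5. Over all genes, 6.29% were called with the muscle term, 3.99% with fat, 5.03% with liver, 3.03% with skin and 10.3% with DESeq2. The skin sum was 174 CPM in WT female 1 and at most 1.07 CPM elsewhere, so the skin term rests largely on that library. Serpina1c had passed the filter on libraries labelled Q84 alone. Without WT female 1 the 5 called were Apoa1, Hpx, Ngp, Plin1 and Serpina1c, all higher, and without Q84 male 1 or without Q84 female 1, 3 or 4 none was called.

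The log2 ratio of group means was 1.14 for muscle (0.24 to 1.96 without 1 library), 1.57 for fat (0.72 to 1.78), 1.54 for liver (-0.15 to 1.74), -6.33 for skin (-6.59 to -1.05), 0.86 for red blood cells (0.57 to 1.18) and 0.89 for granulocytes (0.61 to 1.20). For liver it was -0.13 with medians, -0.30 in females and -0.092 without Q84 male 1 and WT female 1. For skin it was -1.05 as a mean of log values, -1.35 with medians and -0.83 without Q84 male 1 and WT female 1. Among the correlations, r of Acta1 with Alb was -0.83 within WT (exact permutation p = 0.025, unadjusted). Acta1 with Hbb-bs turned to -0.30 without the 2 farthest libraries and -0.13 within Q84, Acta1 with S100a8 to -0.34, -0.16 and, with a pseudocount of 0.1, -0.0033, and Alb with Hbb-bs to 0.078 without the 2 farthest. The cause was not tested in any of these.

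The replicate numbers do not pair the libraries: same-numbered females had correlations of deviations of -0.0063, -0.127 and 0.0903, and not every library correlated best with its own number. Members under about 0.05 CPM rest on fewer than 5 counts a library, which limits their precision.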

Other observations

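Markers outside the 6 tissues also had a high single library. Mobp, a protein of central myelin, stood at 15.3 CPM in Q84 female 4 and at most 5.36 CPM in the other 11 libraries, and Mog, also of central myelin, stood at 2.08 CPM there and at most 0.195 CPM elsewhere. In the same library the sums of all 6 tissues were below their 12-library medians. Ighm, the heavy chain of immunoglobulin M, was highest in Q84 female 1 at 39.8 CPM, which was also second for muscle and fat. These values carry no test.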
